A study of Gallus gallus with 25 samples.

Results

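New boundaries of post-lampbrush type 1 are the edges of contact domains that were called in the pooled Hi-C map of post-LBC type 1 nuclei more than 80 kb away from every edge called automatically in the pooled map of LBC type 1 nuclei, LBC being the lampbrush chromosome stage. They were chosen by that distance alone, and there were 310 of them among the 1254 boundaries of post-LBC type 1, or 24.7%. The other 944 boundaries of the map had an LBC type 1 boundary at 80 kb or less. All 5 domain lists together hold 7414 boundaries. For comparison, 44530 of the 61926 positions on a 16 kb grid inside post-LBC type 1 domains, or 71.9%, lay more than 80 kb from any LBC type 1 boundary. The share of new boundaries was well below this share of positions. The positions include those too near another post-LBC type 1 boundary to be called, since no domain there was shorter than 208 kb.

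During the lampbrush stage the chromosomes of growing avian oocytes are highly extended bivalents made of compact chromomeres and of lateral loops that are actively transcribed. As the oocyte grows further, transcription decreases, the loops shorten and the chromosomes condense. In Hi-C maps a contact domain is a stretch of chromosome whose parts contact each other more often than they contact the flanking sequence, and its boundary is the position where these contacts drop.

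Single-nucleus Hi-C was carried out on 25 nuclei from WT chicken oocytes. The groups were post-LBC type 1 with 4 nuclei and post-LBC type 2 with 1 nucleus, both from oocytes 4 to 7 mm in diameter, and LBC type 1 with 14 nuclei and LBC type 2 with 6 nuclei, both from oocytes 1 to 2 mm in diameter. Type 2 nuclei are those with a larger share of contacts between chromosomes, and the authors left the origin of the types unresolved. They considered that LBC type 2 oocytes may precede the lampbrush stage proper and that post-LBC type 2 may be later than post-LBC type 1, so a type 2 list is not a second sample of the same stage beyond its label. In the paper, LBC type 2 domain boundaries also grouped closely with those of chicken fibroblasts. Contamination by a somatic cell was considered there and called unlikely. The nuclei of each group were merged into 1 map before domains were called, so each list stands for 1 map without replicates, differences between the lists have no test over nuclei, and stage cannot be told apart from the number of nuclei or the depth of each pool. Shares are given with 95% Wilson intervals, which cover counting error only.

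The automatic lists hold 1132 domains in post-LBC type 1 with a median length of 864 kb and 1342 domains in post-LBC type 2 with a median of 688 kb, against 1546 domains in LBC type 1 with a median of 592 kb and 1582 in LBC type 2 with a median of 608 kb. They cover 28 chromosomes, and all their coordinates lie on a 16 kb grid. A further list of LBC type 1 was refined by hand and holds 873 domains, and 27 of its chromosomes could be compared. This list was drawn on the same map as the automatic LBC type 1 list, whereas both type 2 lists come from other nuclei. Coordinates refer to the chicken assembly ASM2420605v2, and a boundary at position 193984000 lies between that base and the next one.

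Most new boundaries lay at most 320 kb from a lampbrush boundary, with no break in the distribution at the threshold. Their distance to the nearest LBC type 1 boundary ranged between 96 and 928 kb, with a median of 192 kb, a lower quartile of 128 kb and an upper quartile of 320 kb. In contrast, 513 of the other boundaries coincided exactly with an LBC type 1 boundary and 239 lay 16 kb from one. The tail of these other boundaries ran without a gap into the new ones. There were 34 boundaries at 80 kb, just inside the threshold, and 36 at 96 kb, just outside it.

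**Figure D1:**
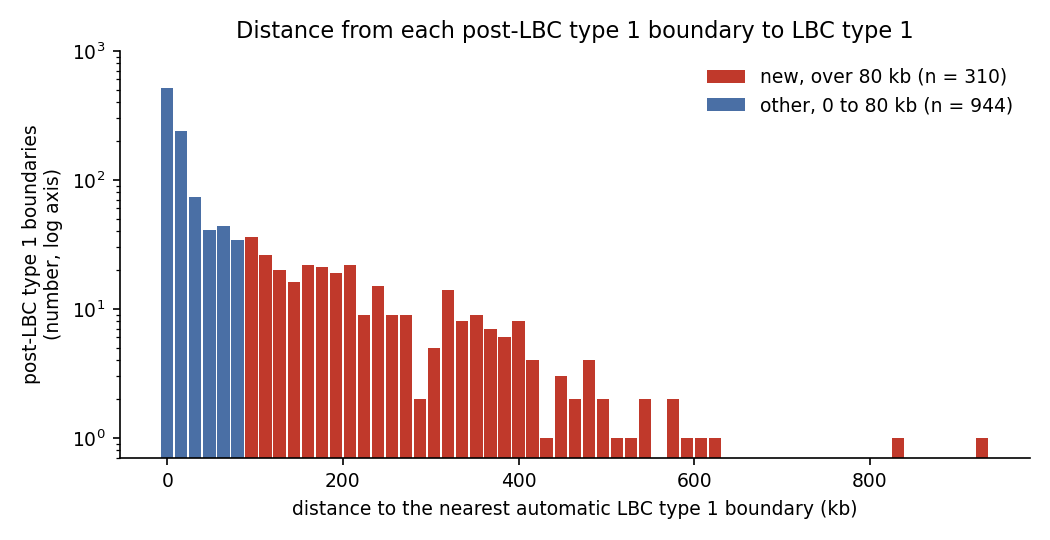
Number of post-LBC type 1 boundaries (log axis) by distance to the nearest automatic LBC type 1 boundary, in steps of 16 kb, with new boundaries in red and other boundaries in blue. Counts fall from 513 at 0 kb to 34 at 80 kb and go on at 36 at 96 kb without a break, and single boundaries lie as far as 832 and 928 kb away.

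Split by distance, 120 new boundaries (38.7%, interval 33.5% to 44.2%) lay more than 80 and up to 160 kb from the nearest LBC type 1 boundary, 86 (27.7%, interval 23.1% to 33.0%) more than 160 and up to 240 kb, and 104 (33.5%, interval 28.5% to 39.0%) more than 240 kb. The grid positions more than 80 kb from LBC type 1 fell into the same classes at 33.3%, 27.0% and 39.6%, and their median distance was 208 kb. The new boundaries were therefore spread over the distances much as these positions were, with a somewhat larger share in the nearest class.

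For nearly all new boundaries, the nearest lampbrush boundary had no counterpart in the later map. The LBC type 1 boundary nearest to a new boundary lacked a post-LBC type 1 boundary within 80 kb in 288 of 310 cases (92.9%). Among all 1710 LBC type 1 boundaries, 939 (54.9%) had such a counterpart, and are called kept, and 771 did not, and are called lost. By distance, the nearest LBC type 1 boundary had no counterpart for 116 of 120 new boundaries in the nearest class (96.7%), 81 of 86 in the middle class (94.2%) and 91 of 104 in the farthest class (87.5%). Since no domain of post-LBC type 1 is shorter than 208 kb, a new boundary in the nearest class leaves little room for a further boundary beside it, and these shares are in part set by the domain caller.

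To ask how many new boundaries lay near a lost lampbrush boundary, each new boundary was paired with at most 1 LBC type 1 boundary that lacked a counterpart, nearest pairs first. Within 160 kb, 118 new boundaries (38.1%, interval 32.8% to 43.6%) found such a partner, and within 240 kb 200 did (64.5%, interval 59.0% to 69.6%). Up to 160 kb from any LBC type 1 boundary, kept or lost, lay 38.7% of new boundaries and 33.3% of the grid positions beyond 80 kb. More than 240 kb away lay 33.5% and 39.6%. The paired shares thus largely repeat the distance classes, and positions were not paired. These 200 pairs used 25.9% of the 771 LBC type 1 boundaries without a counterpart. The new boundary lay at the higher coordinate in 99 of the 200 pairs and at the lower coordinate in 101, so there was no common direction along the chromosomes. The lists alone do not tell a moved boundary from the loss of a boundary beside the gain of another.

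New boundaries very rarely divided a lampbrush domain whose own edges were kept. The flanking LBC type 1 boundaries on both sides were kept in the post-LBC type 1 map for 5 of 310 new boundaries (1.61%, interval 0.691% to 3.72%). Exactly 1 flank was kept for 122 (39.4%, interval 34.1% to 44.9%), neither flank for 180 (58.1%, interval 52.5% to 63.4%), and 3 lay beyond the outermost LBC type 1 boundary of their chromosome. The share between kept flanks was 0.699% of 429 new boundaries at a tolerance of 40 kb and 3.16% of 190 at 160 kb. Of the grid positions more than 80 kb from LBC type 1, 27.9% lay between kept flanks, 52.7% beside 1 kept flank and 19.3% between flanks that were both lost. Seen from the lampbrush map, 461 intervals between neighbouring LBC type 1 boundaries had both ends kept and 5 of them (1.08%) held a new boundary. Their median length was 608 kb, whereas post-LBC type 1 domains had a lower quartile of 624 kb and none was shorter than 208 kb. The length of called domains thus limits further boundaries between kept ends, a limit that the grid positions do not have. Of 905 intervals with 1 kept end, 122 (13.5%) held a new boundary. Of 316 intervals with neither end kept, 169 (53.5%) did, at a median length of 560 kb. These counts rest on both lists that the distance rule used and are a description of the members.

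The 4 LBC type 1 domains that were divided with both edges kept were 544 to 1264 kb long, with a median of 1040 kb. They were divided at 37776000 on chromosome 2, 101792000 on chromosome 3, 7152000 on chromosome 19 and 66656000 on chromosome Z. The boundary on chromosome 2 lay 400 kb from its nearest LBC type 1 boundary in an interval of 992 kb and coincided with an LBC type 2 boundary, whereas no post-LBC type 2 boundary was closer than 400 kb. The boundary on chromosome 3 lay 208 kb from LBC type 1, coincided with a post-LBC type 2 boundary and was 16 kb from an LBC type 2 boundary. The boundary on chromosome 19 lay 240 kb from LBC type 1, 32 kb from a post-LBC type 2 boundary and 2 kb from a manual boundary. The boundary on chromosome Z lay 240 kb from LBC type 1 and coincided with an LBC type 2 boundary, while the nearest post-LBC type 2 boundary was 544 kb away. Thus each of the 4 had a boundary within 80 kb in at least 1 of the type 2 lists. The fifth case with both flanks kept lay in a gap between LBC type 1 domains.

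**Figure D2:**
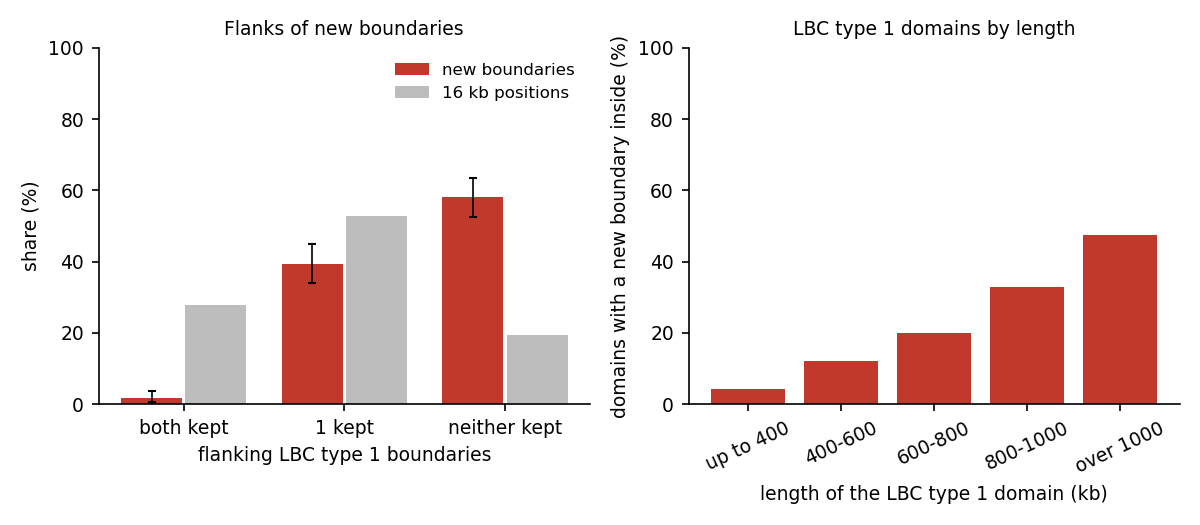
Left, share of new boundaries (red, with 95% Wilson intervals) and of 16 kb positions more than 80 kb from LBC type 1 (grey) by how many flanking LBC type 1 boundaries were kept in post-LBC type 1. New boundaries reach 58.1% between lost flanks against 19.3% of positions, and 1.61% between kept flanks against 27.9%. Right, share of LBC type 1 domains that hold a new boundary, by domain length in kb, which is 4.35% up to 400 kb and 47.4% over 1000 kb.

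Long lampbrush domains held a new boundary more often than short ones. A new boundary lay inside an LBC type 1 domain in 301 cases, in a gap between domains in 6 and outside the outermost domains in 3. The 301 fell into 290 domains, 18.8% of the list, with 1 new boundary in 279 domains, 2 in 11 and never more. The median length was 800 kb for domains with a new boundary (quartiles 608 and 1008 kb), against 560 kb for those without and 592 kb for all. The share of domains that held a new boundary was 4.35% up to 400 kb, 12.1% from there to 600 kb, 20.1% to 800 kb, 33.0% to 1000 kb and 47.4% above. A longer domain has more sequence beyond 80 kb from its edges, so part of this order follows from the rule. Among the 11 domains with 2 new boundaries, 2 on chromosome 2 held a pair only 16 kb apart, at 35696000 and 35712000 and at 102256000 and 102272000. Each pair is the left and right edge of a single 16 kb gap between post-LBC type 1 domains, so that 4 members mark 2 breaks.

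The longest domain of the automatic LBC type 1 list, 1936 kb on chromosome 1 from 193056001 to 194992000, carried the new boundary that is farthest from any automatic LBC type 1 boundary. This boundary lay at 193984000, 928 kb from the nearest LBC type 1 boundary, close to the middle of the domain. Both type 2 maps had a boundary 16 kb from it, at 193968000, whereas the nearest manual boundary was 1248 kb away. A second new boundary of this domain, at 193152000, lay 96 kb from its start and coincided with an LBC type 2 boundary. The break in the middle of the longest automatic LBC type 1 domain was thus called in 3 of the 4 automatic maps, including LBC type 2.

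The next 4 by distance were less well shared. The boundary at 118704000 on chromosome 2 lay 832 kb from LBC type 1, 112 kb from LBC type 2 and 560 kb from post-LBC type 2. That at 30624000 on chromosome Z lay 624 kb from LBC type 1, 64 kb from LBC type 2 and 368 kb from post-LBC type 2. That at 129488000 on chromosome 1 lay 608 kb from LBC type 1, 80 kb from post-LBC type 2 and 240 kb from LBC type 2. That at 65856000 on chromosome 3 lay 592 kb from LBC type 1 and had no boundary closer than 208 kb in any list. All 5 of these farthest boundaries lay inside manual domains, of 3648, 2144, 2016, 5137 and 2528 kb in the order given, each above the N50, 1344 kb. The N50 is the length at which domains that long or longer hold 50% of the summed length. Of the grid positions more than 80 kb from LBC type 1, 51.1% also lay in manual domains above it. The manual list was drawn on the LBC type 1 map, so this feature of the 5 follows in part from their choice.

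**Figure D3:**
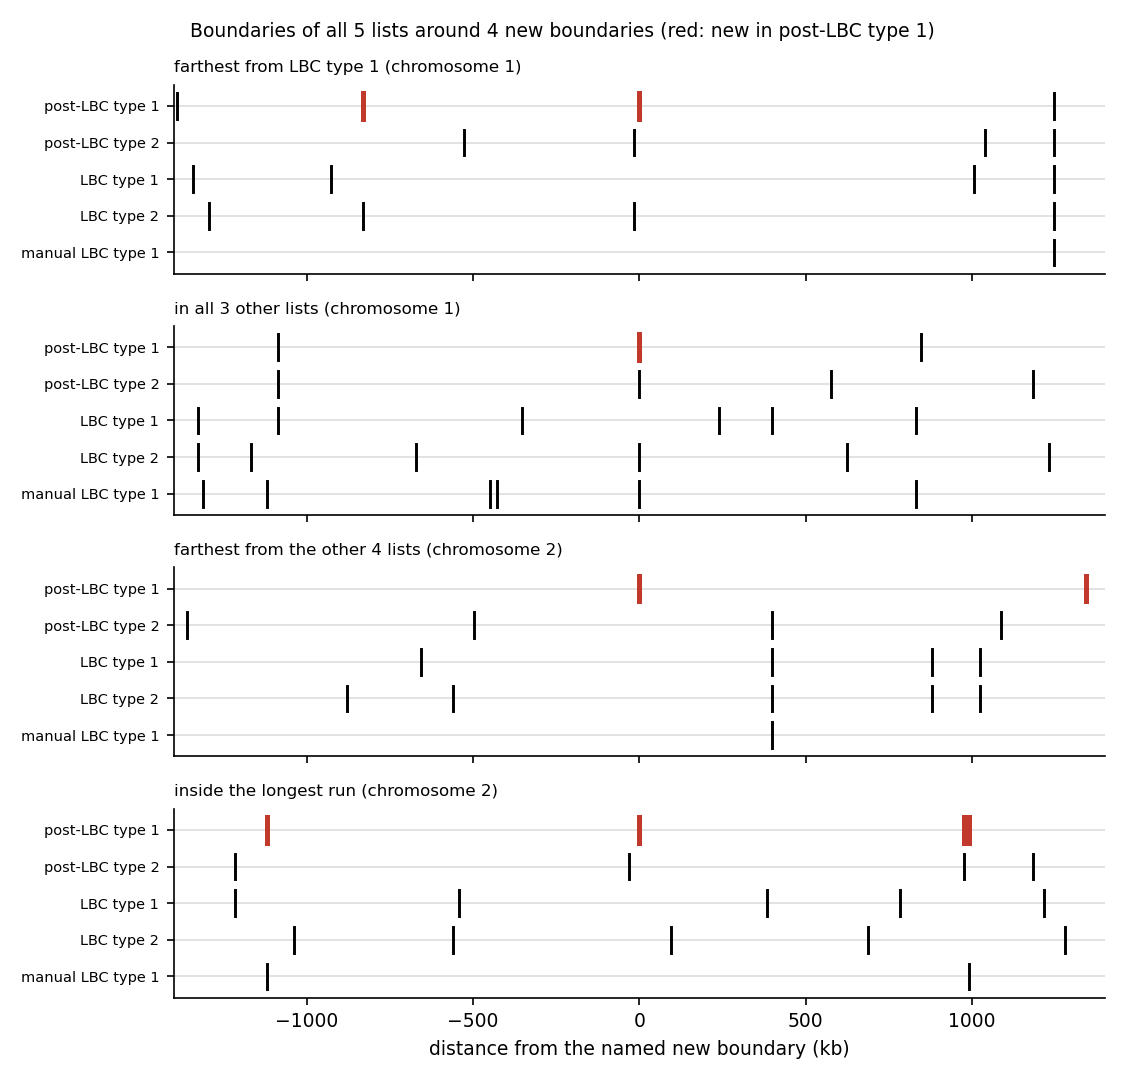
Boundaries of the 5 lists (vertical marks) around 4 new boundaries, by distance in kb from the named boundary, with new boundaries in red and post-LBC lists above LBC lists. At the boundary farthest from LBC type 1 both type 2 maps have a mark 16 kb away, at the next all 3 other lists have a mark at 0 kb, at the third no other list has a mark closer than 400 kb, and in the longest run several red marks alternate with LBC type 1 marks.

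The manual list of the lampbrush map had longer domains around the new boundaries than around the other boundaries. Of 309 new boundaries on the shared chromosomes, 198 (64.1%) lay inside manual domains longer than the N50, against 270 of 935 other boundaries (28.9%) and 51.1% of the grid positions more than 80 kb from LBC type 1. Part of this gap comes from boundaries exactly on a manual boundary, 21 new and 312 other, which have no manual domain around them. Of those inside a manual domain, 198 of 284 new and 270 of 572 other boundaries lay in one longer than the N50. The median length of the manual domain around a new boundary was 1760 kb, against 1318 kb for other boundaries. New boundaries lay a median of 352 kb from the nearest manual boundary, and 118 of them (38.2%) lay more than 500 kb away, against 138 other boundaries (14.8%). Positions were not counted for the 500 kb limit. The manual list was drawn on the map that the rule used. The differences between new and other boundaries in this list are therefore in part set by the rule.

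The 3 further lists were used to ask which new boundaries were also called in another map. In the post-LBC type 2 map, the single nucleus with the same stage label, 133 of 310 new boundaries had a boundary within 80 kb (42.9%, interval 37.5% to 48.5%). This was so for 618 of 944 other boundaries (65.5%, interval 62.4% to 68.4%), for 59.9% of all post-LBC type 1 boundaries and for 18.6% of grid positions more than 80 kb from LBC type 1. The share of new boundaries thus lay between those of the other boundaries and of the positions, and its interval held neither. The match was exact for 25 new boundaries (8.06%) and for 1.62% of positions, and within 16 kb for 53 new boundaries (17.1%) and for 4.86% of positions.

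In the LBC type 2 map, nuclei labelled as lampbrush stage, 103 of 310 new boundaries had a boundary within 80 kb (33.2%, interval 28.2% to 38.6%), as did 570 of 944 other boundaries (60.4%, interval 57.2% to 63.5%), 53.7% of all post-LBC type 1 boundaries and 20.8% of the positions. The match was exact for 31 new boundaries (10.0%) against 1.82% of positions. The median distance from a new boundary was 104 kb to post-LBC type 2 and 144 kb to LBC type 2.

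In the manual LBC type 1 list, 76 of 309 new boundaries had a counterpart within 80 kb (24.6%, interval 20.1% to 29.7%), against 691 of 935 other boundaries (73.9%, interval 71.0% to 76.6%), 61.7% of all post-LBC type 1 boundaries on these chromosomes and 3.84% of the positions. The match was exact for 21 new boundaries and within 16 kb for 50. Because the manual list was drawn on the map that the rule used, these 76 show that the status of a boundary as new depended on which of the lampbrush annotations was taken.

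**Figure D4:**
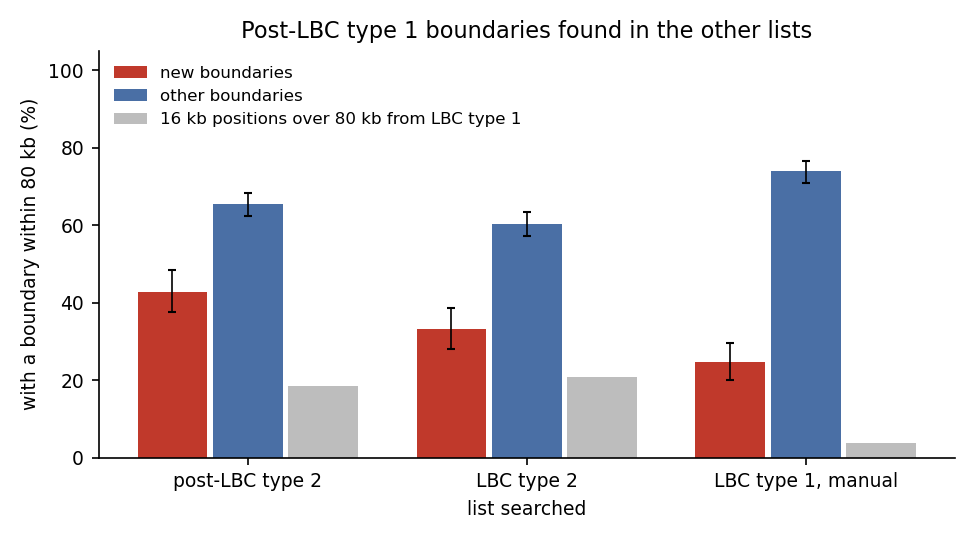
Share of new boundaries (red), other post-LBC type 1 boundaries (blue) and 16 kb positions more than 80 kb from LBC type 1 (grey) with a boundary within 80 kb in each of 3 other lists, with 95% Wilson intervals on the boundaries. In each list new boundaries stand below the other boundaries and above the positions, at 42.9% in post-LBC type 2, 33.2% in LBC type 2 and 24.6% in the manual LBC type 1 list.

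With both type 2 maps combined, 85 new boundaries (27.4%, interval 22.8% to 32.6%) were found in post-LBC type 2 only, 55 (17.7%, interval 13.9% to 22.4%) in LBC type 2 only, 48 (15.5%, interval 11.9% to 19.9%) in both and 122 (39.4%, interval 34.1% to 44.9%) in neither. The other boundaries were in post-LBC type 2 only at 22.8%, in LBC type 2 only at 17.7%, in both at 42.7% and in neither at 16.8%. The positions were at 13.8%, 16.1%, 4.78% and 65.4% in the same order. The largest gap between new and other boundaries was hence in the class shared by both type 2 maps, whereas the class found in the later type 2 map only was of similar size in both.

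Adding the manual list, 152 new boundaries (49.0%, interval 43.5% to 54.6%) had a counterpart in LBC type 2 or the manual list, against 838 of 944 other boundaries (88.8%) and 23.7% of positions. The remaining 158 had none within 80 kb in any of the 3 LBC lists, and 61 of these (38.6%, interval 31.4% to 46.4%) were also called in post-LBC type 2, against 16.8% of the positions with no LBC boundary near. Among other boundaries with neither an LBC type 2 nor a manual counterpart, 49 of 106 (46.2%) were called in post-LBC type 2. The 61 new boundaries found in both post-LBC maps and in no LBC list made up 19.7% of the new boundaries (interval 15.6% to 24.5%), against 12.8% of positions. Their median distance to LBC type 1 was 208 kb. Another 97 (31.3%, interval 26.4% to 36.7%) had no counterpart in any of the other 4 lists, against 57 other boundaries (6.04%) without support beyond LBC type 1 and 63.5% of positions.

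At the opposite end, 18 new boundaries (5.81%, interval 3.70% to 8.99%) had a counterpart in all 3 other lists, against 313 of 944 other boundaries (33.2%). These 18 lay a median of 152 kb from LBC type 1, and the 97 without support a median of 224 kb. By distance class, nearest to farthest, support in post-LBC type 2 was 48.3%, 44.2% and 35.6%, where the positions gave 21.1%, 17.3% and 17.3%. In LBC type 2 it was 35.8%, 33.7% and 29.8%, where the positions gave 22.9%, 19.7% and 19.9%. In the manual list it was 29.4%, 31.4% and 13.5%, where the positions gave 5.73%, 3.72% and 2.35%, so that in this list the middle class did not lie below the nearest one.

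Among the boundaries in all 3 lists, that at 140128000 on chromosome 1 coincided exactly with a boundary of post-LBC type 2, of LBC type 2 and of the manual list, and lay 240 kb from the nearest automatic boundary of LBC type 1. It was inside an automatic LBC type 1 domain of 592 kb, neither edge of which was kept. The boundary at 142144000 on chromosome 2 also coincided with all 3 lists, 192 kb from automatic LBC type 1, at the edge of a gap in post-LBC type 1 and inside a gap in LBC type 1. Chromosome 4 had 2 more of this kind, at 32000, beyond the outermost LBC type 1 boundary and 144 kb from it, and at 18752000, 96 kb from LBC type 1 and again beside a gap. The boundary at 5424000 on chromosome 17 lay 384 kb from LBC type 1, 16 kb from both type 2 lists and 1 kb from the manual list. All 3 new boundaries that lay beyond the outermost LBC type 1 boundary, on chromosomes 4, 7 and 10, were found in all 3 lists.

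The boundaries with least support were on long chromosomes and 1 microchromosome. That at 58192000 on chromosome 2 lay 400 kb from the nearest boundary of each of the other 4 lists, which all had a boundary 400 kb to its right, inside an LBC type 1 domain of 1056 kb. That at 2400000 on chromosome 18 lay 400 kb from LBC type 1, 384 kb from post-LBC type 2 and 352 kb from LBC type 2. Those at 20928000 on chromosome 4, 139584000 on chromosome 2 and 132496000 on chromosome 2 had their nearest boundary of another list 304, 288 and 272 kb away in that order.

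New boundaries were found on 26 of the 28 chromosomes, with none among the 9 boundaries of chromosome 22 and the 8 of chromosome 26. Chromosomes 1, 2 and Z held the largest numbers and shares. On chromosome Z 38 of 86 boundaries were new (44.2%, interval 34.2% to 54.7%), on chromosome 2 63 of 176 (35.8%, interval 29.1% to 43.1%) and on chromosome 1 83 of 240 (34.6%, interval 28.9% to 40.8%). The other macrochromosomes had smaller shares, 21.1% on chromosome 3, 19.8% on chromosome 4 and 18.2% on chromosome 5. The lowest shares above 0 were 3.85% on chromosome 12, with 1 of 26, and 4.55% on chromosome 10, with 1 of 22.

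Chromosomes 1, 2 and Z were grouped because their shares were the highest, so a higher pooled share follows from that choice. Together, they held 184 new boundaries among 502 (36.7%, interval 32.6% to 41.0%), and the other 25 chromosomes 126 among 752 (16.8%, interval 14.3% to 19.6%). They thus carried 59.4% of the new boundaries, with 502 of all 1254 boundaries. The share of grid positions more than 80 kb from LBC type 1 was 75.8% on these 3 chromosomes and 69.0% on the other 25, a smaller difference than that in the share of new boundaries. Their LBC type 1 domains were also longer by median than those of every other chromosome, with medians of 704 kb on chromosome 1, 672 kb on chromosome 2 and 832 kb on chromosome Z. For single nuclei, the paper scaled gamma, the setting of the caller for domain size, by chromosome size. Whether such scaling affected domain lengths or shares of new boundaries per chromosome was not tested. Support in post-LBC type 2 was 41.3% there and 45.2% on the other 25, where the positions gave 19.8% and 17.6%.

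**Figure D5:**
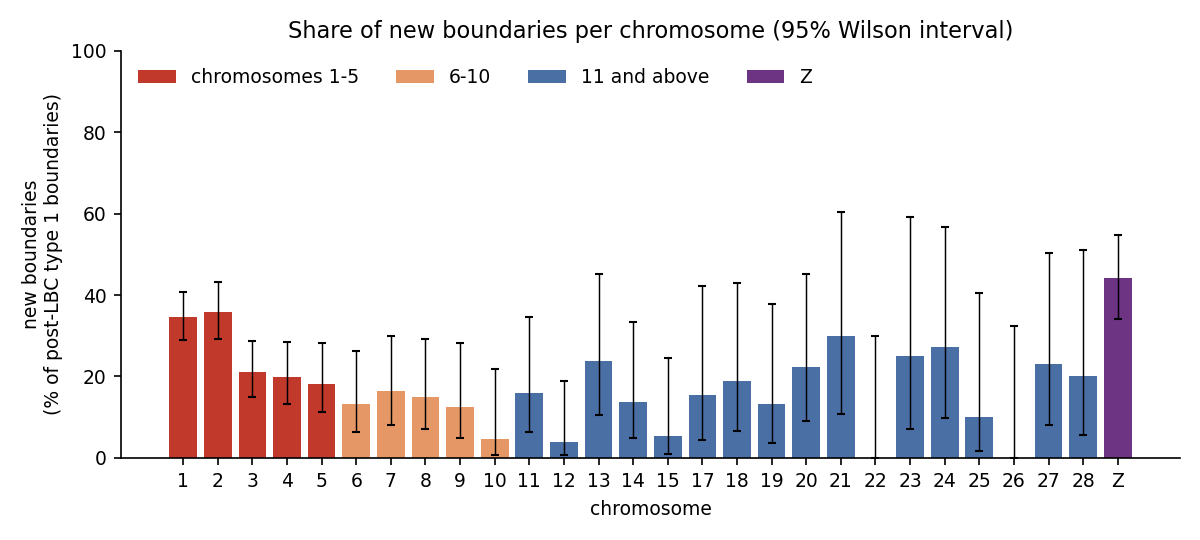
Share of post-LBC type 1 boundaries that are new, per chromosome, with 95% Wilson intervals and colours for chromosomes 1 to 5, 6 to 10, 11 and above, and Z. Chromosomes Z, 2 and 1 stand at 44.2%, 35.8% and 34.6%, and the intervals of most chromosomes above 10 are wide because they have few boundaries.

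By class, 209 of 732 boundaries were new on macrochromosomes 1 to 5 (28.6%, interval 25.4% to 31.9%), 24 of 182 on intermediate chromosomes 6 to 10 (13.2%, interval 9.02% to 18.9%) and 39 of 254 on microchromosomes 11 and above (15.4%). Per 10 Mb covered by post-LBC type 1 domains, there were 5.05 on Z, 3.48 on macrochromosomes, 1.68 on intermediate chromosomes and 2.29 on microchromosomes. Single microchromosomes ranged from 0 on chromosomes 22 and 26 to 5.66 on chromosome 27, which had 3 new boundaries. A density as high as that of Z was thus not particular to Z. Of the new boundaries on chromosome Z, 52.6% lay more than 240 kb from LBC type 1, against 34.0% on macrochromosomes, 20.8% on intermediate chromosomes and 20.5% on microchromosomes. No counterpart in any other list was found for 42.1% on Z, against 31.6%, 16.7% and 28.2% in the same order. Support in the manual list was 7.89% on Z, against 20.6% on macrochromosomes and 47.4% on microchromosomes, and in post-LBC type 2 it was 31.6%, against 44.0% and 43.6%. In LBC type 2, Z at 28.9% lay between microchromosomes at 20.5% and macrochromosomes at 34.4%. On intermediate chromosomes 12 of 24 new boundaries were supported in each of these 3 lists. None of the 18 boundaries found in all 3 lists was on Z. No class was compared by a test, and the 38 boundaries of Z come from 1 chromosome in 1 map. Contacts per chromosome were not examined, so differences in depth between Z and the other chromosomes were not taken into account. The paper reports that whole chromosomes were missing from a few of the single-nucleus maps.

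Along the chromosomes, the new boundaries formed 208 runs without an intervening boundary of the other kind. In these, 149 stood alone (48.1%) and 161 (51.9%) belonged to runs of 2 or more, including the 4 gap edges named above. These shares stand beside 24.7% of boundaries being new, and whether runs were more frequent than in another order was not tested. The longest run held 7 on chromosome 2 between 99200000 and 103984000, a stretch of 4784 kb. Over this stretch the LBC type 1 list had 8 boundaries, LBC type 2 had 8, post-LBC type 2 had 6 and the manual list 4. The new boundaries of the run lay 112, 96, 384, 192, 208, 304 and 208 kb from LBC type 1, in order along the chromosome. The pair at 102256000 and 102272000, the edges of a gap, coincided with a post-LBC type 2 boundary at the first and a manual boundary at the second. The boundary at 100160000 coincided with a manual boundary as well, that at 103152000 lay 2 kb from one, and that at 101280000 lay 32 kb from post-LBC type 2. All 7 were within 80 kb of at least 1 other list except the first, at 99200000, whose nearest other boundary lay 96 kb away in LBC type 2.

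Runs of 5 were found on chromosome 1 between 41616000 and 46000000 and between 150848000 and 154096000, and on chromosome Z between 1296000 and 7216000 and between 48864000 and 53456000. In windows of 10 Mb, the median number of new boundaries was 2, and 22 of 117 windows had none. The highest number, 8, was found in 3 windows. These were 40000001 to 50000000 on chromosome Z with 8 of 10 boundaries new, and 150000001 to 160000000 on chromosome 1 and 100000001 to 110000000 on chromosome 2 with 8 of 12 each.

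Over all chromosomes, post-LBC type 1 domains with new boundaries at both ends were longer by median than the rest. The median length was 1024 kb for the 100 domains with a new boundary at both ends (quartiles 844 and 1220 kb), 864 kb for the 396 with 1 new end and 824 kb for the 636 with none (quartiles 592 and 1056 kb). This order of the medians did not hold in each class, since microchromosomes had 720 kb for 5 domains with both ends new and 768 kb with none, and Z had 880 kb with 1 new end and 1064 kb with none. Of the 100 domains, 91 held an LBC type 1 boundary more than 80 kb from both ends, 36 of them 2 or more. Among all 1132 post-LBC type 1 domains, 617 (54.5%) held a boundary that far inside, 132 of them 2 or more. In the 100 domains, any LBC type 1 boundary lies that far inside because of the way the ends were chosen. A domain with 2 new ends lacks one only if both ends fall between the same neighbouring LBC type 1 boundaries. A domain with both ends kept can lack one by being kept whole. The difference from all domains thus follows at least in part from the rule. The longest was 1888 kb on chromosome Z from 2384001 to 4272000, with both ends 208 kb from LBC type 1. The LBC type 1 boundaries at 2592000 and 2736000 lay inside it and had no counterpart in the later map.

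New boundaries were mostly shared edges of adjoining domains. A smaller share of them than of the other boundaries lay near the outermost boundary of their chromosome. The position was the edge of a domain on both sides for 286 of 310 (92.3%), against 724 of 944 other boundaries (76.7%). Edges of gaps or of a chromosome's domain set made up 24 new boundaries (7.74%) and 220 others (23.3%), and 19.5% of all boundaries. In total, 32 new boundaries (10.3%) lay within 2 Mb of the outermost boundary of their chromosome, against 163 others (17.3%) and 15.6% of all. Of the outermost boundaries themselves, 5 were new and 51 were not. Positions were not counted for these features. Whether the differences come from edges of the covered sequence that recur in both lists was not tested.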

How the data were processed

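Nuclei were grouped by the stage and type given in the labels. The authors trimmed reads with cutadapt, aligned them with juicer, stored contacts with cooler, merged the nuclei of each group and called domains with lavaburst. The deposited values are domain starts and ends in bp on ASM2420605v2, with no score, contact count or value per nucleus. The study's library statistics were not used here, so differences in depth between the pooled maps were not taken into account. The methods name a resolution of 20 kb, whereas the automatic lists lie on a 16 kb grid. Gamma, which sets domain size in lavaburst, is not given in the sources used here for the pooled maps.

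Boundaries are the distinct domain starts and ends per chromosome. A boundary was kept or supported if another list had one within 80 kb. Chromosomes W and 33, which only the manual list covers, were left out. Domains over the N50 of the manual list follow the class that the study calls LUDs. Shares carry 95% Wilson intervals (scipy 1.17.1, numpy 2.4.6, pandas 2.3.3, Python 3.11.15, matplotlib 3.10.9), and positions are all steps of the 16 kb grid inside post-LBC type 1 domains. Members and comparisons were chosen with earlier results of these data known. Boundaries are named if they are the 5 farthest from LBC type 1, the 5 closest to all 3 other lists, the 5 farthest from all other lists, or lie in the longest runs, the domains with most new boundaries or the longest domain with 2 new ends. The domains divided with both edges kept and the boundaries outside LBC type 1 were named after their values were seen. The grouping of chromosomes 1, 2 and Z was also made after their shares were seen. Counting was tested on simulated data. Alternatives changed the tolerance, the LBC type 1 list, the matching, the treatment of ends and gaps, and the chromosomes included. Sequence and genes were not analysed here.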

Additional observations from a re-analysis of the deposited data

How the results depend on the processing

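The number of new boundaries depended on the tolerance and on the LBC type 1 list. It was 502 at 20 kb, 190 at 160 kb and 477 against the manual list on shared chromosomes, compared with 310 in the report, and it was 234 against both lists together. Support in post-LBC type 2 was 20.5%, 26.3% and 59.5% at tolerances of 20, 40 and 160 kb, with 5.70%, 9.00% and 33.5% of positions. Support in LBC type 2 was 17.1%, 20.5% and 46.8%, with 6.09%, 9.83% and 39.0% of positions, so that at 160 kb it stood closest to its background. Support in the manual list was 17.6% at 20 kb, and the median distance to the manual list was 352 kb. The share of new boundaries between kept flanks was 0.699% and 3.16% at 40 and 160 kb, inside its interval, and 269 of 429 and 95 of 190 lay between lost flanks, the second a smaller share than the interval in the report allows. Of 140 alternatives, 129 stayed within 1.5 times the count or within the interval of the share. Most of the 140 left out 1 of the 28 chromosomes, many of which held few new boundaries, so this tally says little about robustness. The 11 that moved all changed the tolerance or the LBC type 1 list. Of these, 1 was the median distance to the manual list, which was counted as moved without applying either limit. Without single chromosomes the number of new boundaries ranged between 227 and 310, support in post-LBC type 2 between 42.3% and 44.5%, in LBC type 2 between 31.7% and 34.1%, and in the manual list between 23.6% and 27.4%. No paired analysis was possible because each group is 1 pooled map.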
